A study of Canis lupus familiaris with 20 samples.

Results

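The genes described here are the 88 genes that were higher in epiphyseal cartilage of dogs with mucopolysaccharidosis VII (MPS VII) than in that of control dogs at both ages sampled, out of 14550 genes tested and 24580 in the deposited table. They were selected on the genotype difference itself. A member had a mean log2 CPM (counts per 1000000 counts, scaled between libraries) at least 1.5 above the control mean at day 9 and again at day 14, and its lowest affected library stood above its highest control library at both ages. Of all tested genes 97 met these values, and 9 of them lay among 3 single genes and 8 regions that the rule left out. Because these values chose the members, the genotype differences are given as a description with no test. The table identifies genes by Ensembl identifier and position only, and the symbol table at hand, made for a different dog assembly, matched 0 of the 88. Genes are therefore named by their position in CanFam3.1, with no gene name or function, and the level of GUSB and the markers of cartilage and of other cell types were not tested.

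In MPS VII, a heritable disorder of the lysosome, the enzyme that GUSB encodes, beta-glucuronidase, is deficient. The enzyme removes glucuronic acid from the ends of heparan, dermatan and chondroitin sulfate chains, and without it partly degraded glycosaminoglycans collect in lysosomes of many cell types. In a growing vertebra the epiphysis is first cartilage, whose chondrocytes enlarge before vessels and bone-forming cells enter and replace it with bone, and in MPS VII this step is known to be delayed or to fail.

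All 20 dogs carried the R166H missense allele of GUSB of a naturally occurring canine model. Control dogs were heterozygous, so they carried 1 copy of the allele as well, and affected dogs were homozygous. There were 5 control and 5 affected dogs at postnatal day 9 and 5 and 5 at postnatal day 14, and each animal gave 1 library from the pooled cranial and caudal epiphyses of its T12 vertebra. Controls were matched by litter, but the labels do not tie single animals to a litter, and sex was not used. The tissue was taken whole next to the growth plate, so a level in it can change with the number of cells of a type or with the RNA per cell, and fewer cells and less RNA per cell cannot be told apart. Libraries held 15772761 to 28028365 counts. All day 14 control libraries, at 16975358 to 20766128 counts, were shallower than every day 9 library, so age and depth went together. The part of depth in the age changes was not tested. Replicate 3 of the affected day 9 dogs stood apart from its group over all genes, with a median absolute deviation from the group mean of 0.403 on the log2 scale, against 0.11 to 0.24 in the other 19 libraries.

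The selected genes had low levels in control cartilage and medium levels in affected cartilage, a contrast that follows in part from the rule. At day 9 the median of their mean levels was 1.06 CPM in control and 8.31 CPM in affected animals. At day 14 it was 1.18 and 9.97 CPM. Over all tested genes the same median lay between 12.2 and 12.7 CPM in the 4 groups. Per kb of exon, the median level of the members was 0.5705 CPM in day 9 controls and 3.797 CPM in day 9 affected dogs, against 5.44 and 5.71 CPM per kb over all tested genes. Means under 1 CPM were found in 41 members in day 9 controls and 39 in day 14 controls, and in 3 and 0 in affected dogs of the same ages. A library with 0 counts occurred for 19 members among day 9 controls and 13 among day 14 controls. In affected dogs the rule allowed no such library, since each had to stand above every control library of its age. The fewest counts of a member in an affected library were 4. As a share of all counts, the members together took 0.0575% ± 0.00404 in day 9 controls, 0.0575% ± 0.00374 in day 14 controls, 0.368% ± 0.205 in day 9 affected dogs and 0.329% ± 0.0803 in day 14 affected dogs (SD, n = 5 each).

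The difference in mean log2 CPM between affected and control dogs ran from 1.52 to 4.94 at day 9, with a median of 2.55. At day 14 it ran from 1.501 to 5.06, with a median of 2.42. Differences of at least 2 were reached by 67 members at day 9 and 69 at day 14, and differences of at least 3 by 25 and 29. The difference was larger at day 14 in 47 members and larger at day 9 in 41. As a ratio of group means, affected dogs stood a median of 7.102-fold above controls at day 9 (2.85 to 97.1) and 6.03-fold at day 14 (2.93 to 42.7). The rule asked only for a gap between the genotypes, and the lowest affected library was at least 2-fold above the highest control library in 55 members at day 9, in 63 at day 14 and in 38 at both ages. Shares over all tested genes with a 2-fold gap were not set beside these counts, so nothing is read from them. A gap of any size at both ages was present in 350 of all tested genes (2.41%). By edgeR's quasi-likelihood test all 88 members were called higher in affected dogs at both ages, where 6.18% of all tested genes were called higher at day 9, 11.3% at day 14 and 3.67% at both. Since the rule used these contrasts, nothing is read from that count.

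**Figure D1:**
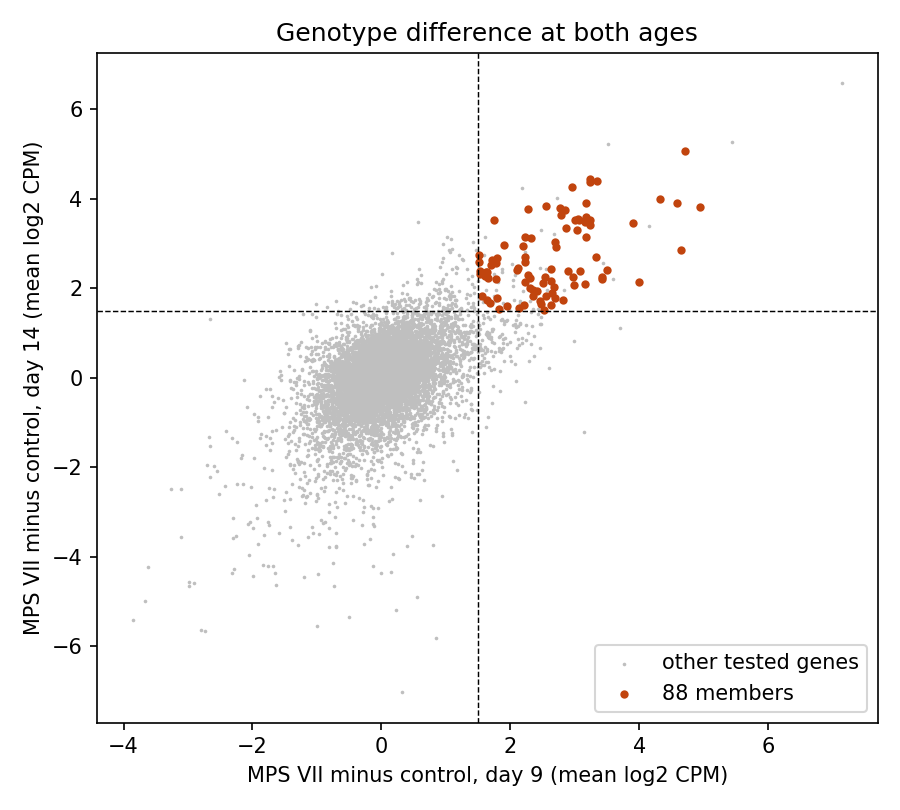
Difference in mean log2 CPM between MPS VII and control dogs at day 9 (x axis) and day 14 (y axis) for all 14550 tested genes (grey) and the 88 members (colour), with the 1.5 limits of the rule as lines. Members lie in the upper right corner by construction, between 1.52 and 4.94 at day 9 and between 1.501 and 5.06 at day 14. Grey genes in the same corner overlapped between genotypes or were left out by the rule.

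Members and other genes lay close to either side of the limit of 1.5. Of the 5 members nearest to it, the gene on chromosome 16 from 39436753 to 39513280 had its smaller difference, 1.501, at day 14, when its control and affected means were 9.46 and 27.8 CPM. The other 4 had theirs at day 9. They start at 18.51 Mb of chromosome 13 (1.52), at base 72419958 of chromosome 8 (1.52), at 17.89 Mb of chromosome 30 (1.53) and at 54.41 Mb of chromosome 6 (1.53). Just outside, genes at 55.43 Mb of chromosome 15, at 56.63 Mb of chromosome 10, at 72.56 Mb of chromosome 8, at 60.55 Mb of chromosome 17 and at 53.37 Mb of chromosome 18 met the gap at both ages with a smaller difference of 1.48, 1.47, 1.47, 1.44 and 1.44. The second of these had mean levels of 133 CPM in day 9 controls and 387 CPM in day 9 affected dogs.

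The member with the most reads was ENSCAFG00000004617, on chromosome 1 from 110525865 to 110527644, called gene A. In day 9 controls its 5 libraries held 114, 158, 103, 138 and 138 CPM, and in day 9 affected dogs 1156, 794, 1569, 1659 and 875 CPM. In day 14 controls they held 62.4, 71.5, 142, 80.8 and 105 CPM, and in day 14 affected dogs 1228, 1342, 672, 1288 and 641 CPM. Every affected library was at least 4.53 times the highest control library of its age. Its difference in mean log2 CPM was 3.17 at day 9 and 3.48 at day 14, and per kb of exon it was also the highest member, at 134 and 1245 CPM per kb in day 9 controls and affected dogs.

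Genes B to L are the next 11 members by mean CPM over the 20 libraries. Gene B, on chromosome 24 from 34732924 to 34828569, averaged 126 CPM ± 27.2 in day 9 controls and 429 CPM ± 159 in day 9 affected dogs (SD, n = 5 each, here and for the genes that follow). At day 14 its means were 39.4 CPM ± 9.12 and 245 CPM ± 67.7. The level in day 9 controls, with libraries of 88.9 to 164 CPM, was above that of day 14 controls in every library (27.6 to 52.3 CPM). Gene C, on chromosome 9 from 2521387 to 2534115, had the smallest difference of the 12 at both ages, 1.57 and 1.83, with means of 70.2 and 213 CPM at day 9 and 47.4 and 172 CPM at day 14. Gene D, on chromosome 6 from 6304623 to 6321742, averaged 55.5 CPM ± 20.4 in control and 195 CPM ± 74.4 in affected animals at day 9, and 21.9 CPM ± 8.02 and 144 CPM ± 56.6 at day 14. Gene H, on chromosome X from 14994581 to 15034597, stood at 33.2 and 106 CPM at day 9 and at 18.03 and 86.3 CPM at day 14. Gene L, on chromosome 1 from 64165718 to 64217711, stood at 20.9 and 72.2 CPM and at 9.42 and 45.4 CPM. In A, B, C, D, G, H and L the mean level was lower at day 14 than at day 9 in both genotypes, and the genotype difference was larger at day 14. For gene H this order in affected dogs rested on replicate 3 of day 9, without which its day 9 mean was 82.6 CPM.

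Gene G, on chromosome 2 from 84877860 to 84883135, was among the 12 the one nearest to gene A in the size of its difference. Its libraries held 12.7, 15.6, 12.4, 21.5 and 19.7 CPM in day 9 controls and 137, 90.4, 318, 189 and 107 CPM in day 9 affected dogs. At day 14 they held 5.52, 9.37, 13.4, 6.14 and 8.82 CPM in control and 78.1, 87.1, 60.5, 193 and 102 CPM in affected animals. All affected libraries lay above all control libraries of both ages, and the difference in mean log2 CPM was 3.23 at day 9 and 3.53 at day 14. Genes I and J had higher mean levels at day 14 than at day 9 in both genotypes. Without replicate 3 of the affected day 9 dogs this order also held for gene F, whose day 9 mean in affected dogs was then 74.4 CPM, against 118 CPM at day 14, while its control means were 21.7 and 30.2 CPM. Gene I, on chromosome 24 from 26774177 to 26801096, averaged 7.98 CPM ± 1.02 and 60.8 CPM ± 15.4 at day 9 and 18.04 CPM ± 2.897 and 97.9 CPM ± 33.5 at day 14. Gene J, on chromosome 38 from 21054894 to 21060947, held 5.16, 2.903, 3.88, 7.07 and 5.73 CPM in day 9 controls and 17.3, 25.5, 15.6, 18.5 and 13.6 CPM in day 14 controls. In affected dogs it held 41.9, 40.9, 80.3, 57.6 and 45.9 CPM at day 9 and 86.6, 109.7, 74.4, 112 and 53.04 CPM at day 14. Its control libraries of the 2 ages did not overlap, while its affected libraries of the 2 ages overlapped.

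In genes E, F and K the day 9 mean of affected dogs moved with the library that stood apart. Gene E, on chromosome 24 from 32162033 to 32174638, held 148, 100.2, 488, 158 and 152 CPM in the day 9 affected dogs, against 26.3 to 48.6 CPM in controls. Gene F, on chromosome 1 from 62092121 to 62110299, held 77.9, 55.4, 672, 72.8 and 91.4 CPM, against 15.9 to 27.3 CPM. Gene K, on chromosome 6 from 13131216 to 13698797, held 51.2, 34.4, 201, 62.9 and 79.4 CPM, against 8.02 to 15.5 CPM. In each of the 3 the highest value was that of replicate 3. Without it the ratio of day 9 means fell from 5.44 to 3.63 for gene E, from 8.91 to 3.42 for gene F and from 6.94 to 4.61 for gene K. At day 14, when the library plays no part, the ratios were 4.13, 3.896 and 4.52. Per kb of exon the order of the members in day 9 affected dogs was A, C, G, B, E, F and D, from 1245 down to 101 CPM per kb. From C onward each gene differed from the next by less than their spread. Examples are C, G and B (168, 162 and 143) and F and D (102 and 101). Without replicate 3 the order was A, C, B, G, D, E, the gene at 11.06 Mb of chromosome 6 and F. Gene F then stood at 39.04 CPM per kb in place of 102, and gene E at 83.7 in place of 126.

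**Figure D2:**
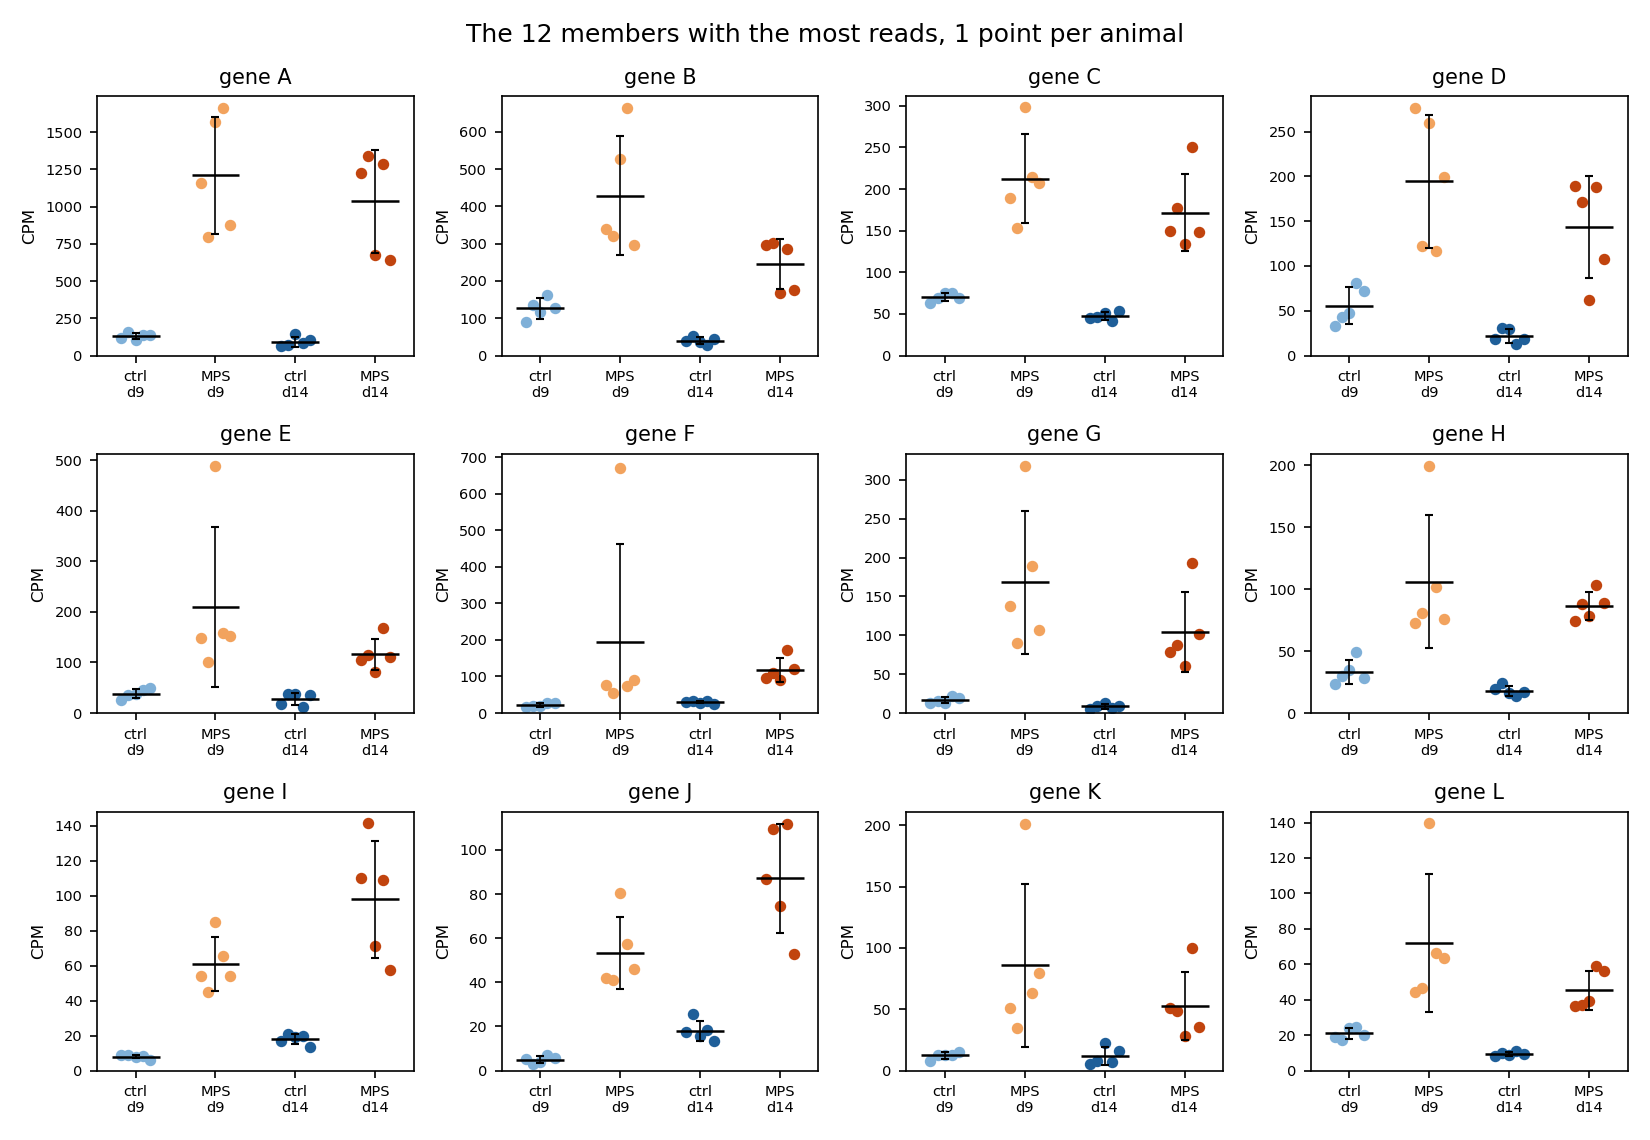
Level of the 12 members with the highest mean CPM, genes A to L, in each of the 20 libraries (points, linear axis in CPM from 0), with the mean of each group of 5 dogs as a line and its SD as a bar. In each panel the affected points lie above the control points of the same age, as the rule requires, and the isolated high points of E, F and K at day 9 are replicate 3. The lower SD bar of F at day 9 runs below 0 and is cut.

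The 10 members with the largest genotype difference, averaged over both ages, had control means under 2 CPM at day 9, and up to 2.85 CPM at day 14. The largest was ENSCAFG00000032731, on chromosome 9 from 37734558 to 37740115. Control libraries held 0.279, 0.341, 1.67, 1.97 and 0.896 CPM at day 9 and 2.18, 1.44, 0.6805, 1.03 and 0.951 CPM at day 14. Affected libraries held 18.9, 8.02, 117, 15.4 and 26.01 CPM at day 9 and 45.5, 30.8, 24.6, 85.3 and 42.96 CPM at day 14. Among the affected day 9 dogs replicate 3 was the highest, and without it the mean of 36.99 CPM fell to 17.1 CPM. Its difference was 4.72 at day 9 and 5.06 at day 14.

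Among the 10 are genes at 67.71 Mb and at 58.09 Mb of chromosome 11, which are not close neighbours. The gene on chromosome 11 from 67713589 to 67726155 held 6 counts over the 5 day 9 controls and 555 over the 5 affected dogs, a ratio of 92.6 with a 95% counting interval of 42.3 to 253. Its affected libraries held 3.13, 1.88, 10.1, 5.41 and 3.22 CPM at day 9 and 2.801, 3.47, 1.004, 7.36 and 4.61 CPM at day 14. The values spread widely within each affected group while no control library exceeded 0.192 CPM. The other, from 58085495 to 58090683, held 7 counts over the day 9 controls and 327 over the affected dogs of that age, a ratio of 46.7 (22.4 to 117). It averaged 2.86 CPM ± 0.158 at day 9 and 5.21 CPM ± 1.38 at day 14 in affected dogs. Counting intervals cover the sampling of reads only.

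A member on chromosome 20 from 53342021 to 53385263 averaged 0.169 CPM ± 0.163 in day 9 controls and 5.56 CPM ± 2.44 in affected dogs, and 0.622 CPM ± 0.2404 and 10.3 CPM ± 2.51 at day 14. Next to each other in size were the gene on chromosome 5 from 55831596 to 55972118, with differences of 3.23 and 4.43, and the gene on chromosome 25 from 50303570 to 50306441, with 3.24 and 4.38. Their means were 1.95 and 1.97 CPM in day 9 controls and 19.3 and 22.3 CPM in day 9 affected dogs. In day 14 controls they were 0.767 and 0.775 CPM. Another, on chromosome 23 from 27759397 to 27899273, had means of 0.348 and 3.61 CPM at day 9 and 0.182 and 4.79 CPM at day 14. For the last of the 10 by this measure, on chromosome 1 from 84940066 to 84994247, these were 0.478 and 3.33 CPM, and 0.322 and 7.21 CPM. On chromosome 38 from 20979963 to 20994524, a member had 10 counts over the day 9 controls, and its affected libraries of that age held 1.41, 1.17, 10.5, 2.45 and 0.827 CPM. Its ratio of day 9 means was 43.05, and 19.2 without replicate 3.

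**Figure D3:**
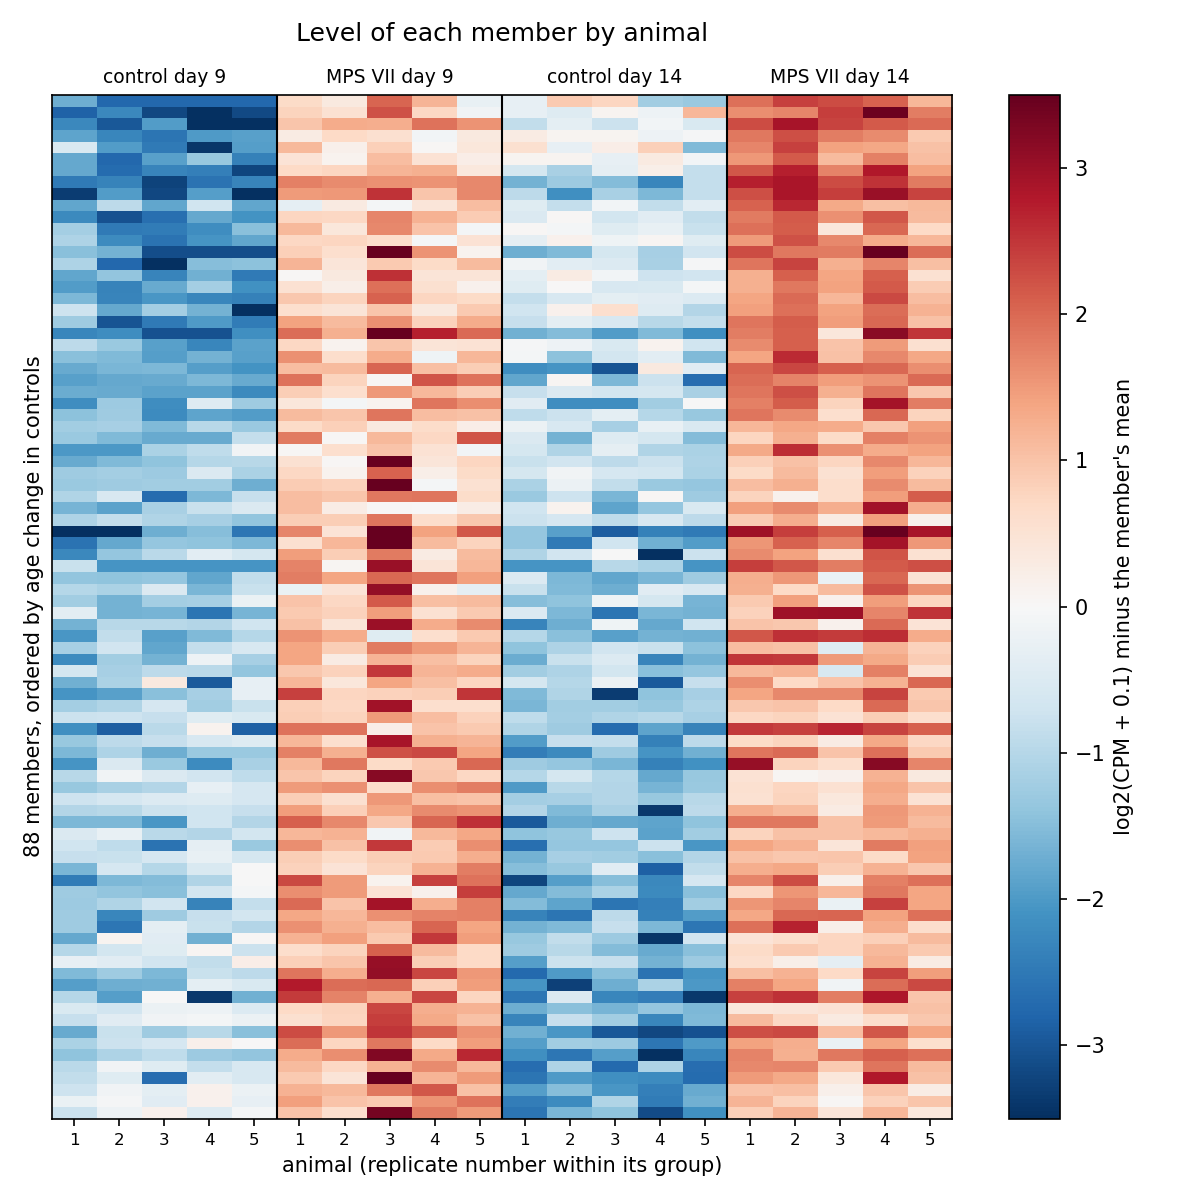
Heat map of the 88 members (rows) in the 20 libraries (columns, by group), coloured by log2(CPM + 0.1) minus the mean of the gene over all libraries, with the colours cut at 3.5 either way and rows ordered by the age change in controls. Affected columns are redder than control columns by construction, and replicate 3 of day 9 is the highest of its group in 50 members.

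The spread within groups is given as a description. The median SD of log2 CPM among the 5 dogs was 0.5103 for members and 0.207 for all tested genes in day 9 controls, and 0.522 and 0.278 in day 14 affected dogs. The members' levels were also lower than those of other genes, and the part of level in the SD was not tested. The median Pearson r between members, on deviations from group means, was 0.302 among the 5 affected day 9 libraries and 0.442 among the 5 affected day 14 libraries, against 0.036 and 0.066 in the control groups. Over all 20 libraries it was 0.157, and 2.7e-04 over all tested genes. All genes of a dog share its library and depth, and the affected day 9 group includes the library that stood apart. Members were also lower in controls by the rule, and the part of level in r was not tested. Among affected day 14 dogs, replicate 4 stood above the group mean in 70 of 88 members (median deviation 0.42) and replicate 2 in 64 (0.25), while replicate 3 stood above it in 13 (-0.38). Among affected day 9 dogs, replicate 3 stood above it in 64 (0.50) and replicate 2 in 13 (-0.35). Control libraries had median deviations of -0.17 to 0.17. The 14 members with at least 5 CPM in both control groups, a limit chosen after the data were seen, had a median r of 0.559 over all libraries. In these 14 it was 0.644 in day 9 controls and 0.806 in day 9 affected dogs, and 0.123 and 0.646 in the same groups of day 14, so the control value of day 9 was about that of the day 14 affected dogs.

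**Figure D4:**
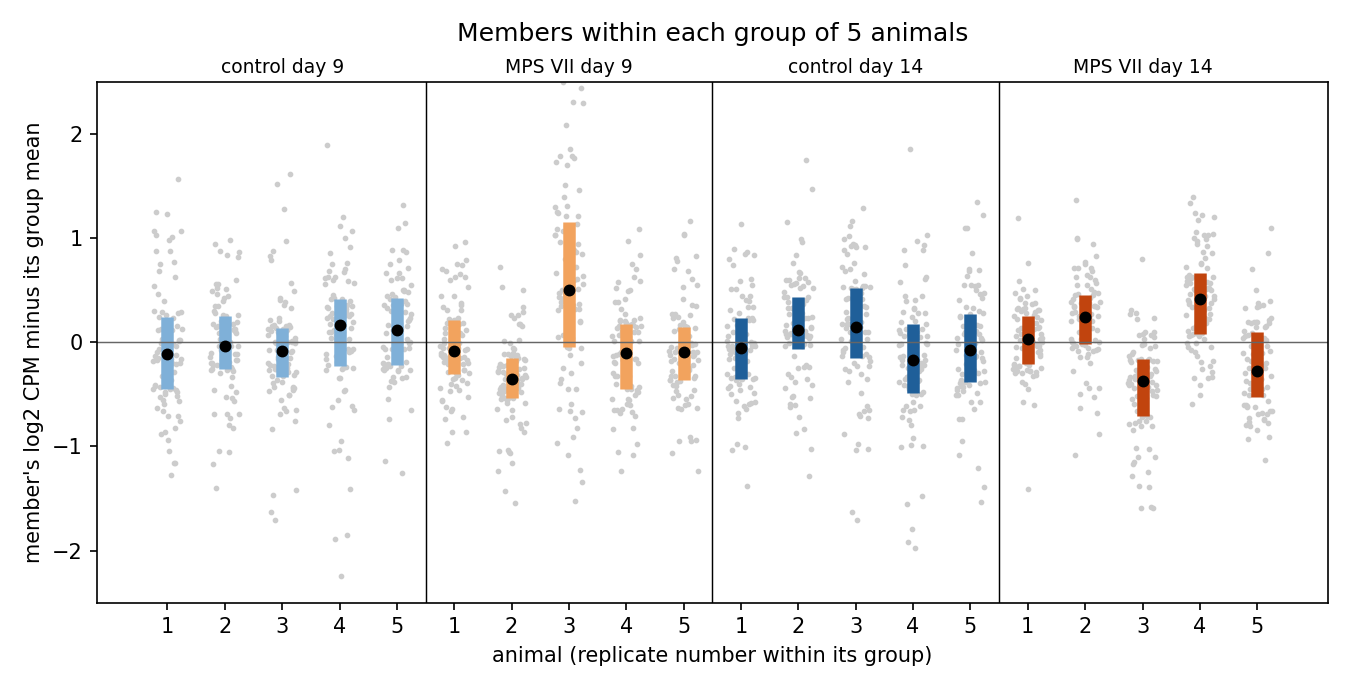
Deviation of each member from its group mean in log2 CPM (grey points, 88 per library) in the 20 libraries, with the median as a black point and the middle of the values, quartile to quartile, as a thick bar. Medians of the control libraries lie between -0.17 and 0.17, while those of affected dogs spread from -0.38 to 0.50. Beyond the axis lie 5 points.

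Replicate 3 of day 9 was the highest of its group in 50 members and the lowest in 11. Without it the ratio of day 9 means fell more than 1.5-fold in 15 members and rose that much in 0, and the median over the 88 went from 7.102 to 5.75, with 2.06 as the lowest. One of them, on chromosome 22 from 58196783 to 58228810, held 18.97, 17.9, 81.8, 16.03 and 16.1 CPM in the group, the gene on chromosome 17 from 39269562 to 39293195 held 6.35, 5.55, 29.6, 6.16 and 5.29 CPM, and the gene on chromosome 16 from 31115591 to 31118030 held 13.03, 14.5, 61.4, 13.4 and 11.9 CPM. In all 3 the other 4 affected dogs lay close together. On chromosome X from 121782428 to 121788973, a gene held 7.398, 6.81, 12.8, 7.34 and 7.08 CPM, again with replicate 3 highest.

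The ages were then compared within each genotype. The rule set limits on the genotype differences, and fixed neither the direction nor the size of a change with age. It did favour members whose levels moved alike with age in both genotypes, since the gap had to hold at both ages. In controls 23 of the 88 members (26.1%) were higher at day 14 than at day 9 by edgeR's quasi-likelihood test, 16 (18.2%) were lower and 49 did not pass. Over all tested genes 21.8% were called higher and 20.7% lower, so the members' shares were near those of other genes. The median log2 fold change with age in controls was -0.01 for members and -0.06 for all tested genes.

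Among the 23 that rose in controls, the gene on chromosome 27 from 37433792 to 37435246 had libraries of 1.604, 1.15, 0.925, 1.45 and 1.52 CPM at day 9 and 7.298, 6.39, 6.35, 5.298 and 5.79 CPM at day 14. The ages did not overlap, and the log2 fold change was 2.22 ± 0.22 (SE), with an edgeR adjusted p of 1.43e-07. In affected dogs the means were 7.86 CPM ± 1.599 and 20.4 CPM ± 6.32. A second, on chromosome 17 from 54171816 to 54185647 and one of those with the largest genotype difference, rose from 0.486 CPM ± 0.387 to 2.85 CPM ± 0.631 in controls, by 2.47 ± 0.38 (SE) on the log2 scale (edgeR adjusted p = 3.21e-05), and stood at 11.1 and 21.3 CPM in affected dogs. Next, the gene on chromosome 7 from 5720687 to 5752812 rose by 3.88 ± 0.64 (SE) in controls (edgeR adjusted p = 7.37e-05), from 0.115 to 1.85 CPM. After it, the gene on chromosome 24 from 47101037 to 47105994 rose by 2.20 ± 0.57 (SE) (edgeR adjusted p = 0.003803), from 0.213 to 1.08 CPM. Last, the gene on chromosome 1 from 93645049 to 93688867 had 3 counts over the day 9 controls and 61 over those of day 14, a ratio of 21.6 with a 95% counting interval of 7.05 to 108 (edgeR adjusted p = 0.000435). Over the 23 the median of mean levels went from 0.998 to 2.998 CPM in controls and from 7.86 to 11.6 CPM in affected dogs.

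Among the 16 that fell in controls, gene B had the most reads. Its log2 fold change with age was -1.68 ± 0.24 (SE) in controls (edgeR adjusted p = 1.53e-05), and its control libraries of the ages did not overlap. On chromosome 11 from 51227595 to 51266222, a gene with means of 4.89 CPM ± 1.18 and 1.33 CPM ± 0.638 changed by -1.90 ± 0.47 (SE) (edgeR adjusted p = 0.00308). On chromosome 8 from 72419958 to 72420773, a gene with means of 2.72 CPM ± 0.432 and 0.762 CPM ± 0.399 changed by -1.85 ± 0.29 (SE) (edgeR adjusted p = 4.14e-05). The genes at 24.99 Mb of chromosome 9 and at 50.30 Mb of chromosome 25 fell too, with log2 fold changes of -1.36 ± 0.34 (SE) and -1.34 ± 0.42 (SE) and edgeR adjusted p of 0.00283 and 0.0142. Of the 12 members with the most reads, genes B, C, D, G, H and L fell with age in controls, I and J rose, and A, E, F and K did not pass. Gene A had a log2 fold change of -0.50 ± 0.26 (SE) (edgeR adjusted p = 0.122). Each of the 10 age changes in controls named by size kept its call in all 25 alternative fits. Members that rose in controls had a median of 2073 exon bases and those that fell 2054, against 3284.5 and 1959 over all tested genes called in those directions.

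In affected dogs 16 members (18.2%) rose from day 9 to day 14 and 4 (4.55%) fell by the same test, where 12.7% of all tested genes rose and 9.92% fell. Without replicate 3 of day 9, 27 members rose, without replicate 2 of day 14 the count was 9 and without replicate 1 of day 9 it was 10. The number that fell was 7 without replicate 2 of day 9 or replicate 4 of day 14 among affected dogs. It was 0 without replicate 3 or 5 of day 14 in the same genotype, and 1 or 2 without most of the other libraries. Shares over all tested genes in these reduced fits were not set beside the counts, so no shift particular to the members is read from them. The median log2 fold change was 0.12 for members and -0.09 for all tested genes. The gene on chromosome 5 from 28918694 to 28933474 held 13.3, 13.9, 19.1, 19.6 and 10.8 CPM at day 9 and 37.97, 54.8, 27.6, 57.8 and 21.96 CPM at day 14, without overlap. It rose by 1.38 ± 0.28 (SE) in affected dogs (edgeR adjusted p = 0.00148) and by 1.999 ± 0.33 (SE) in controls (edgeR adjusted p = 6.88e-05). The gene on chromosome 13 from 18507548 to 18517419 averaged 11.03 CPM ± 3.93 and 30.9 CPM ± 19.01, a log2 fold change of 1.49 ± 0.37 (SE) (edgeR adjusted p = 0.00775), and did not pass in controls, with 0.41 ± 0.39 (SE). These were the 2 of the 9 genes named by size whose calls held in every alternative.

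The genes at 5.06 Mb of chromosome 12, at 33.82 Mb of chromosome 25 and at 34.14 Mb of chromosome 5 rose by 1.53 ± 0.49 (SE), 1.44 ± 0.51 (SE) and 1.65 ± 0.51 (SE), with edgeR adjusted p of 0.0298, 0.0456 and 0.0248. Their day 14 means in affected dogs were 3.01, 1.25 and 1.11 CPM, and the calls were lost in 7 of 25, 13 of 24 and 2 of 24 alternatives. The 4 that fell were genes B and L and the genes at 51.23 Mb of chromosome 11 and at 39.27 Mb of chromosome 17. Their log2 fold changes were -0.81 ± 0.23 (SE), -0.67 ± 0.24 (SE), -1.17 ± 0.41 (SE) and -1.21 ± 0.41 (SE), with edgeR adjusted p of 0.0182, 0.0473, 0.0451 and 0.0393. The last of these had its highest value in replicate 3 of day 9, and without that library its change was -0.33 (edgeR adjusted p = 0.339, over a range of 0.0233 to 0.339 in its alternatives). Without the same library the change of the gene at 51.23 Mb of chromosome 11 was -0.43 (edgeR adjusted p = 0.25, range 0.0157 to 0.25) and that of gene L -0.26 (edgeR adjusted p = 0.206, range 0.0189 to 0.206). Over all alternatives, gene B lost its call in 4 of 25 and gene L in 21 of 25. The call was lost in 18 of 25 for the gene at 51.23 Mb of chromosome 11. For the gene at 39.27 Mb of chromosome 17 it was lost in 10 of 24.

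Both genotypes called 11 members higher and 3 lower with age, 0 were called in opposite directions and 43 were called in neither. These counts were not set against shares over all tested genes, so nothing is read from them. The age comparisons of the genotypes share no library. The 49 members that did not pass in controls had medians of mean levels of 0.647 and 0.604 CPM in controls and 5.06 and 4.79 CPM in affected dogs at the 2 ages. All 23 members that rose in controls had a log2 fold change above 0 in affected dogs, where their median was 0.86. In controls, in which their size chose them, it was 1.76. Of the 16 members lower with age in controls, 12 were below 0 in affected dogs, with medians of -0.39 and -1.22. Over all tested genes called in controls, the sign in affected dogs was the same for 86.8% of risers and 91.9% of fallers. A member that rose in controls and fell in affected dogs would have lost part of its gap at day 14. The rule thus favoured the same sign in risers, and nothing is read from the count of 23.

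**Figure D5:**
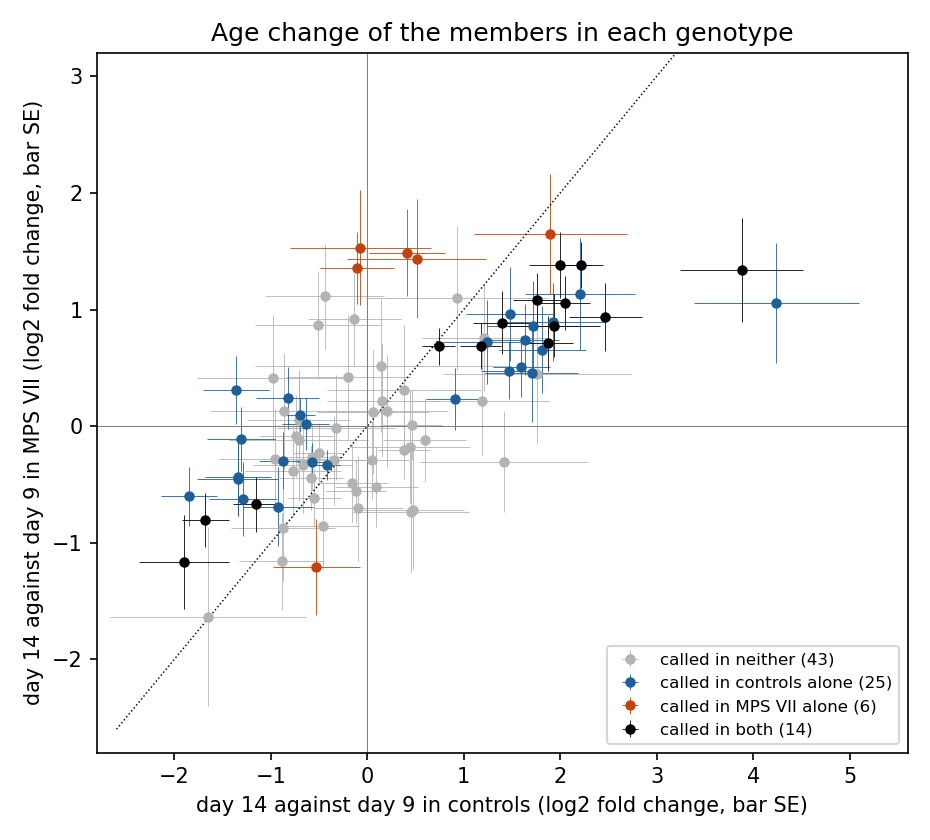
Log2 fold change from day 9 to day 14 in controls (x axis) and in MPS VII dogs (y axis) for the 88 members, coloured by the genotype in which the change passed the edgeR test, with the SE as bars and the line of equal change. All 23 members that rose in controls lie above 0 on the y axis, which the rule favoured by asking for a gap at day 14.

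How far the genotypes differed in their age change is given as a description with no test. It equals the genotype difference at day 14 minus that at day 9, the values on which the members were selected. The edgeR interaction called 2 of the 88 members more positive in affected dogs, where 0.825% of all tested genes were called, and 0 more negative, where 2.43% were called. At an unadjusted p under 0.05 the counts were 7 and 8, and DESeq2 called 3 and 4. Since the rule used both differences, nothing is read from these counts. The first of the 2, on chromosome 9 from 24991114 to 25039361, held 1.81, 3.24, 2.64, 1.97 and 2.37 CPM in day 9 controls and 0.484, 1.63, 0.454, 1.64 and 0.476 CPM in day 14 controls. In affected dogs it held 7.85, 5.97, 8.38, 11.6 and 7.91 CPM at day 9 and 11.7, 11.9, 6.86, 13.3 and 7.81 CPM at day 14. The log2 fold change with age was -1.36 in controls and 0.31 in affected dogs, where it did not pass. The difference of these changes was 1.67 ± 0.44 (SE). The second, on chromosome 30 from 17887781 to 17972687, averaged 12.3 CPM ± 1.98 and 7.57 CPM ± 1.305 in controls and 35.6 CPM ± 5.65 and 37.9 CPM ± 7.16 in affected dogs, a difference in log2 age change of 0.79 ± 0.21 (SE). Both calls were lost in 14 of 24 alternatives, and without replicate 3 of the affected day 9 dogs 6 members were called more positive. Leaving out each of 15 other libraries gave 0 or 1. The number called more negative was 2 without replicate 1 of the day 9 controls, and 1 without replicate 3 of that group or replicate 4 of the day 14 affected dogs.

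Day 9 affected dogs were also set against day 14 controls, to place the size of the genotype difference beside that of 5 days of age. All 5 affected libraries of day 9 lay above all 5 control libraries of day 14 in 73 members, where 14.8% of all tested genes had this order. The order follows in part from the rule, so nothing is read from the count. It held in 16 of the 16 members that fell with age in controls, 45 of the 49 that did not pass and 12 of the 23 that rose. Given the rule, a fall in controls makes the order easier to meet and a rise makes it harder. Shares over all tested genes in these age classes were not set beside the counts, so nothing is read from them. For gene J the day 9 affected libraries held 40.9 to 80.3 CPM and the day 14 controls 13.6 to 25.5 CPM. For the gene at 37.43 Mb of chromosome 27 these were 5.595 to 9.77 and 5.298 to 7.298 CPM, which overlapped.

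The members were spread over 32 chromosomes, 9 of them on chromosome 1, 6 each on chromosomes 5 and 6 and 5 each on 11 and X. Their exons covered a median of 2029 bases (378 to 10337), against 2312 over all tested genes, and 5 of them (5.68%) had a single exon, against 8.14%. In 5 places a pair of members started within 200 kb of each other. On chromosome 38, gene J and the gene from 20979963 to 20994524 stood at 26.3 and 1.32 CPM per kb of exon in day 9 affected dogs and at 2.45 and 0.0308 CPM per kb in day 9 controls. On chromosome 11, the gene from 67713589 to 67726155 and that from 67729275 to 67730030 stood at 4.67 and 10.3 CPM per kb in the same affected dogs and at 0.0481 and 2.06 CPM per kb in the controls. On chromosome 1, the genes from 102779497 to 102787260 and from 102971911 to 102977693 both rose with age in controls, by 1.48 ± 0.46 (SE) and 1.72 ± 0.48 (SE) (edgeR adjusted p = 0.0131 and 0.00675). On chromosome 8, the genes from 72423345 to 72430357 and from 72419958 to 72420773 both fell with age in controls, the first with a log2 fold change of -0.64 ± 0.24 (SE) (edgeR adjusted p = 0.0363). On chromosome X, the gene from 50843008 to 50881664 stood at 16.1 CPM per kb in day 9 affected dogs, and its neighbour from 50998460 to 51100785 at 0.326 CPM per kb, with 4 counts over each control group. Whether any of the pairs are near-identical copies that share reads was not tested, and the pairs need not be separate changes.

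Of the 168 tested genes that flank a member and are no members, 13 (7.74%) were called higher in affected dogs at both ages, beside 3.67% of all tested genes, and 1 of the 168 is a gene that the rule left out. Exons of 4 members overlap those of another gene, on the same strand for the gene at 34.14 Mb of chromosome 5 and the gene at 121.78 Mb of chromosome X, and on the opposite strand for the genes at 0.22 Mb of chromosome 10 and at 54.41 Mb of chromosome 6. How the counting used strand is not stated in the sources at hand, so the values of these 4 are uncertain.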

How the data were processed

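RNA sequencing libraries were made from 20 dogs with a stranded mRNA kit and read in pairs of 100 bases on an Illumina HiSeq, and reads were mapped to CanFam3.1 with Ensembl annotation, per the labels' protocols. STAR 2.4.0j, HTSeq, edgeR, CASAVA 1.8.2 and bcl2fastq are listed in the submitters' processing notes, with no role or order. The authors deposited raw counts per gene for 24580 genes, with exon positions and strand, per the file headers. Each of the 20 count columns matched the title of 1 sample, and 0 other count columns were present. Between 65.2% and 76.4% of counts under 200 were even numbers, as when both mates of a pair are counted, so fits were repeated on halved counts and counting intervals understate the error. No 2 libraries of a group were alike within sampling noise (chi-square per gene 16.7 to 607 over 40 pairs).

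The fit used edgeR 4.0.16 under R 4.3.3 (filterByExpr on the 4 groups, TMM scaling, 1 mean per group, robust glmQLFit and glmQLFTest). This left 14550 genes, and the 10030 dropped held 0.0413% of counts. Benjamini-Hochberg adjustment ran over all tested genes, and calls are at an adjusted p under 0.05. Log2 CPM used a prior count of 2. The SE of a log2 fold change is its size divided by the square root of the quasi-likelihood F. It is thus taken back from the test and is not a separately fitted error. Replicates are separate animals by their labels, numbered in accession order. Genes were named by rule: the 12 with the most reads, the 10 with the largest genotype difference, up to 5 per direction and age comparison, those at the limit of the rule, neighbours within 200 kb, and 6 with a library that stands apart. The members and lists were chosen with earlier results of these data known. DESeq2 1.42.0 and the other alternatives are in the closing section. Marker lists were not tested, since identifiers were not paired with names.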

Additional observations from a re-analysis of the deposited data

Results flagged for a closer look

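For the members named in the text, a library was marked where its gap to the nearest other library of the group, divided by the range of the group in log2 CPM, exceeded 0.71, the 95% Dixon value for 5 libraries. The ratio follows each gene. Replicate 1 of the day 9 controls was the highest of its group for the gene at 51.00 Mb of chromosome X (1) and the gene at 93.65 Mb of chromosome 1 (1). Replicate 3 of the day 9 affected dogs was the highest of its group for the gene at 58.20 Mb of chromosome 22 (0.897), the gene at 39.27 Mb of chromosome 17 (0.894), the gene at 31.12 Mb of chromosome 16 (0.879), the gene at 121.78 Mb of chromosome X (0.868), the gene at 50.84 Mb of chromosome X (0.809), gene F (0.7997) and gene E (0.713). Replicate 3 of the day 9 affected dogs was the lowest of its group for the gene at base 72423345 of chromosome 8 (0.846). Replicate 2 of the day 14 affected dogs was the highest of its group for the gene at 33.82 Mb of chromosome 25 (0.7798). Replicate 1 of the day 9 affected dogs was the highest of its group for the gene at 18.51 Mb of chromosome 13 (0.765). Replicate 4 of the day 14 affected dogs was the highest of its group for the gene at 18.51 Mb of chromosome 13 (0.764), the gene at 58.20 Mb of chromosome 22 (0.759) and the gene at 20.98 Mb of chromosome 38 (0.72003). Replicate 4 of the day 14 controls was the lowest of its group for the gene at 67.73 Mb of chromosome 11 (0.744) and the gene at 50.30 Mb of chromosome 25 (0.722). Replicate 3 of the day 9 controls was the lowest of its group for the gene at 58.09 Mb of chromosome 11 (0.719). Replicate 5 of the day 9 controls was the lowest of its group for the gene at 102.78 Mb of chromosome 1 (0.716) and gene I (0.710002). A ratio of 1 means that the other 4 libraries held the same value, which for both genes was that of no counts. The groups held 4 and 3 counts in all, so these ratios rest on a few reads. Over all 352 pairs of a member and a group, 40 (11.4%) passed, and 18 of the 40 were replicate 3 of the day 9 affected dogs. About 5% would pass among independent, normally distributed values. The pairs share libraries and some hold tied counts, so nothing is read from the difference between these shares.

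The age change was marked as different between genotypes for the genes at 24.99 Mb of chromosome 9 (1.67 on the log2 scale) and at 17.89 Mb of chromosome 30 (0.787). This contrast is built from the genotype differences that chose the members, so it is no independent test, and both calls were lost in 14 of 24 alternatives.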

How the results depend on the processing

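The rule gave 88 genes, and between 83 and 90 with median-ratio scaling, no filter, halved counts or a prior count of 0.5. With a minimum difference of 1 it gave 163 and with 2 it gave 54. Leaving out 1 library at a time gave 82 to 97. With age in controls 21 to 25 members rose and 13 to 18 fell when 1 library was left out. With age in affected dogs 9 to 27 rose and 0 to 7 fell, and the difference of the age change called 0 to 6 higher and 0 to 2 lower. Shares over all tested genes in these reduced fits were not set beside the counts. The count that fell in affected dogs was 2 with median-ratio scaling, 1 with no filter and 0 with only the compared groups in the fit, and DESeq2 called 4 members lower for the difference; the cause was not tested. The median correlation of 0.157 was 0.152 without replicate 3 of day 9 and 0.559 in the members above 5 CPM, both chosen after seeing the data. No genotype or age value of a named gene reversed under the alternatives run. No paired analysis was possible because the labels do not say which animals share a litter. In day 9 controls 41 members had means under 1 CPM, where few counts limit the precision.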
